A study of Mus musculus with 16 samples.

Results

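The genes described here encode the enzymes that take muscle glycogen and glucose to pyruvate, together with both common subunits of lactate dehydrogenase. They were chosen by name: Ldha, Ldhb, Pygm, Pfkm, Aldoa, Gpi1, Tpi1, Pgam2, Eno3 and Pkm, which is 10 genes. Every probe set of the deposited table that carries 1 of these symbols and no other was taken, which gave 17 of 7729 probe sets and 9 of 4929 named genes. Ldhb and Aldoa had 4 probe sets each, Tpi1 had 3 and each of the other 6 genes had 1. No probe set of the table carried Gpi1 as its only symbol, so that gene was skipped.

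The arrays compared gastrocnemius, a muscle of the hind limb, and triceps, a muscle of the forelimb, from female C57BL/6 mice at 7 weeks of age. The SOD1G93A mice carried a human transgene with a mutation that causes inherited amyotrophic lateral sclerosis and were at a stage before symptoms, and the controls, NTg, were non-transgenic mice. With 4 mice per genotype and both muscles taken from each, there were 4 groups of 4 arrays, 16 arrays from 8 mice. The sources used here do not give the promoter that drives the transgene or the line it comes from. Values are log2 signals of whole muscle, 1 unit being a doubling, and the number of arrays limits their precision.

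In resting and working muscle, glycogen phosphorylase frees glucose units from glycogen, phosphofructokinase commits the sugar to glycolysis, and aldolase and the later enzymes carry it on to pyruvate. Lactate dehydrogenase then interconverts pyruvate and lactate as a tetramer of A and B subunits. Tetramers of the A subunit, encoded by Ldha, are typical of fast glycolytic fibres, and tetramers rich in the B subunit, encoded by Ldhb, are typical of heart and of slow oxidative fibres, which burn lactate. Pygm, Pfkm, Pgam2 and Eno3 are the forms of their enzymes that adult skeletal muscle uses.

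Facts of the whole table frame these values. All 5 skeletal muscle markers (Acta1, Ckm, Des, Mb and Tnnc2) were bright on every array, with a mean log2 signal between 12.25 and 13.84. Of the 9 slow fibre genes, all were higher in gastrocnemius, and their mean signal ran from 10.24 to 11.48 over the gastrocnemius arrays and from 4.53 to 8.81 over the triceps arrays. The tested set was the 4637 probe sets with a mean above the 40th percentile of the table, and all 17 glycolytic and lactate dehydrogenase probe sets were in it. In 3 of the 8 triceps arrays, NTg replicates 1 and 2 and SOD1G93A replicate 2, the brightest signals stood apart: the mean of the 100 brightest other probe sets was 12.08 to 12.18 there and 12.62 to 13.09 on the other 13 arrays. Values that move with these 3 arrays are given with and without them.

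The lactate dehydrogenase B subunit was the member that separated the muscles. Ldhb was 2.52-fold higher in gastrocnemius than in triceps by its brightest probe set, in both genotypes and in 8 of 8 mice, and all 4 of its probe sets passed the test. The A subunit and the other 7 genes did not pass it. No member passed the test between SOD1G93A and NTg mice.

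The sequences before the gene starts are shown for the lactate dehydrogenase pair, whose members parted between the muscles, and for Pgam2 and Eno3, which are specific to muscle and varied with Ldha. Each is the 250 bases upstream of a start site in RefSeq (GRCm38.p6), 5′ to 3′ on the strand of the gene: Ldha, the first of 2 starts, chr7:46845554-46845803, plus strand; Ldhb, chr6:142507958-142508207, minus strand; Pgam2, chr11:5803797-5804046, minus strand; Eno3, chr11:70656926-70657175, plus strand. Capitals mark ACGTG on either strand, a form of the core of the element that hypoxia factors read, and the MEF2 motif. That motif is read by a muscle transcription factor family.
Ldha: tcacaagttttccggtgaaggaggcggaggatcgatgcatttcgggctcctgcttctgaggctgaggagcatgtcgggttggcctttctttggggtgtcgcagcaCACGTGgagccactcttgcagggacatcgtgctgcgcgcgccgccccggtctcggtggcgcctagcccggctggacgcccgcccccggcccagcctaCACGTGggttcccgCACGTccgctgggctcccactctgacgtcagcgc
Ldhb: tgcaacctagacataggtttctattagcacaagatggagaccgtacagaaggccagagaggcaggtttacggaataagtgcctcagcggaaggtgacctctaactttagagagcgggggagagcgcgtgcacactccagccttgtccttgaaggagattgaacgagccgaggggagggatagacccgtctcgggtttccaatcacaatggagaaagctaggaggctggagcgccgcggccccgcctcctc
Pgam2: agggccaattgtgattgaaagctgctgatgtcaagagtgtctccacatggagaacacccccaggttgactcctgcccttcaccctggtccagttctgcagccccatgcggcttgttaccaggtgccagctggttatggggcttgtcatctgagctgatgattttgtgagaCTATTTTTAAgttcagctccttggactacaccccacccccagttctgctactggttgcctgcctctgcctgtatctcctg
Eno3: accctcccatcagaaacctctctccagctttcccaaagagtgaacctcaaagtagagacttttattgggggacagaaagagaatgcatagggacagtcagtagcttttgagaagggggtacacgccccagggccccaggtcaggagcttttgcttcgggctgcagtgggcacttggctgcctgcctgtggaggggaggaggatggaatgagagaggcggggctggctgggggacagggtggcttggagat

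The Ldha window held 3 stretches with ACGTG on either strand, starting 145, 48 and 34 bases before the start, and a CACGTG holds it on both strands and was counted once. At least 3 such stretches stood in 0.256% of the 32851 windows of this length, and 1 or more in 16.6%. The window of the second Ldha start held 0. The Ldhb window held no ACGTG on either strand, and other forms of the hypoxia core were not searched. All 9 member genes were matched, with 16 windows, of which 7 windows of 5 genes (Ldha, Pygm, Pfkm, Aldoa and Pkm) held ACGTG. The MEF2 motif stood once, in the Pgam2 window, starting 80 bases before the start, and in 2.92% of all windows. CANNTG, the E-box of myogenic factors, which overlaps ACGTG where a site reads CACGTG, stood in 13 of 16 member windows and in 66.2% of all. TCAGGTT, the MEF3 motif of muscle genes, stood in 0 of 16 on either strand, against 3.49% of all. A match describes letters in the window and is no measure of binding.

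By array, the brightest Ldhb probe set read 10.11, 9.80, 10.10 and 10.14 in NTg gastrocnemius and 9.96, 10.45, 10.24 and 10.19 in SOD1G93A gastrocnemius. In triceps it read 8.77, 8.02, 8.74 and 9.22 in NTg mice and 8.59, 8.07, 9.46 and 9.45 in SOD1G93A mice. Every gastrocnemius array was above every triceps array of the same genotype. Group means were 10.04 ± 0.16 (SD, n = 4) in NTg gastrocnemius, 10.21 ± 0.20 in SOD1G93A gastrocnemius, 8.69 ± 0.50 in NTg triceps and 8.89 ± 0.68 in SOD1G93A triceps. The order of the means was SOD1G93A gastrocnemius, NTg gastrocnemius, SOD1G93A triceps and NTg triceps, and the first pair and the last pair each overlapped.

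Over both genotypes, Ldhb by this probe set was 1.33 higher in gastrocnemius (SE 0.19, 95% interval 0.93 to 1.74), with a limma adjusted p of 0.000266. The other Ldhb probe sets gave 1.47 (SE 0.17, adjusted p 2.81e-05), 1.26 (SE 0.17, adjusted p 0.000137) and 1.58 (SE 0.21, adjusted p 0.000137) in the same limma fit. Thus 4 of the 17 member probe sets were called higher in gastrocnemius, against 2.11% of all 4637 tested, and none was called lower, against 1.57%. In either direction the percentage of all probe sets called was 3.69. The 4 called were the 4 of Ldhb, so they count as 1 gene. They were also the only 4 of the 17 that differed by at least 2-fold, against 1.16% of all. In whole muscle, fewer cells of a type and less RNA per cell cannot be told apart.

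By the brightest probe set the Ldhb difference was 1.35 in NTg and 1.32 in SOD1G93A mice. By the other 3 it was 1.55 against 1.39, 1.42 against 1.09 and 1.76 against 1.41, smaller in SOD1G93A mice in each, with no call. The difference between the genotypes was -0.03 by the brightest probe set, with a 95% interval of -0.84 to 0.77, and -0.35 by the dimmest (-1.25 to 0.55), which became -1.01 without the 3 arrays. These intervals leave room for a sizeable difference. Within single mice the difference ran from 0.74 in SOD1G93A mouse 4 to 2.37 in SOD1G93A mouse 2, whose triceps array is among the 3 that stood apart. Over the 5 mice without such an array it ran from 0.74 to 1.37, with a mean of 1.04. Without the 3 arrays the fitted difference was 1.05 (adjusted p 0.00024 in limma), and after quantile normalization it was 1.30. In each of these fits the 4 Ldhb probe sets were the members called, against 2.22% of all probe sets without the 3 arrays and 3.41% after quantile normalization.

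Its 4 probe sets followed each other over the 16 arrays with Pearson correlations between 0.78 and 0.97. The dimmest read 9.42, 9.49, 8.66 and 9.43 in NTg gastrocnemius and 8.93, 9.40, 9.29 and 9.17 in SOD1G93A gastrocnemius. In triceps it read 8.13, 8.06, 6.38 and 7.39 in NTg mice and 7.44, 7.62, 7.99 and 8.11 in SOD1G93A mice. NTg mouse 3 was the lowest of its group in both muscles by this Ldhb probe set, which was not so by the brightest one. Groups of the 2 muscles did not overlap in either genotype for any of the 4 probe sets. Over all tested probe sets, 6.69% did not overlap between the muscles in NTg and 8.3% in SOD1G93A mice.

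**Figure D1:**
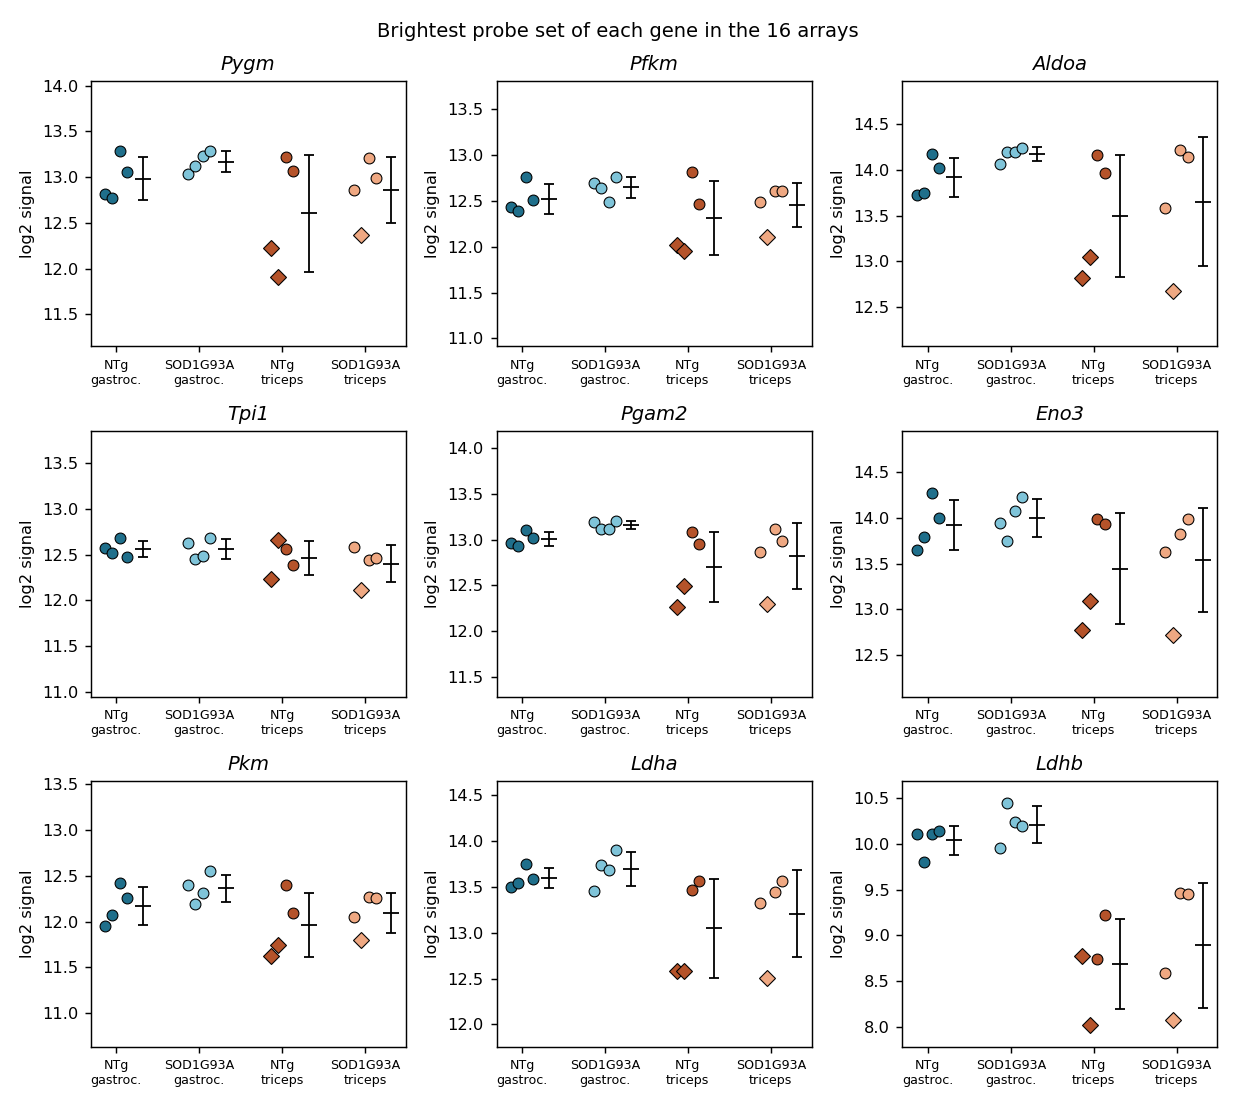
Log2 signal of the brightest probe set of each of the 9 genes, 1 point per array, in the 4 groups of 4 arrays; the vertical bars are the group mean ± SD, and all panels span the same range of log2 units. Diamonds mark the 3 triceps arrays that stood apart. Ldhb is the panel in which the gastrocnemius arrays (9.80 to 10.45) lie above the triceps arrays (8.02 to 9.46) with no overlap, while in Ldha, Pygm, Pfkm, Aldoa, Pgam2, Eno3 and Pkm the diamonds lie below all other arrays.

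The A subunit gave a smaller difference between the muscles than the B subunit. Ldha read 13.50, 13.55, 13.75 and 13.58 in NTg gastrocnemius and 13.46, 13.74, 13.69 and 13.91 in SOD1G93A gastrocnemius. In triceps the Ldha values were 12.58, 12.58, 13.46 and 13.57 in NTg mice and 13.32, 12.51, 13.44 and 13.56 in SOD1G93A mice. The muscles overlapped in both genotypes, and the 3 lowest of the 16 readings were those of the arrays that stood apart. The Ldha difference, gastrocnemius minus triceps, was 0.52 (SE 0.17, 95% interval 0.15 to 0.89), above 0 in 8 of 8 mice, and its limma adjusted p was 0.106. This difference was 0.17 without the 3 arrays and 0.08 after quantile normalization. With the mouse as a random or a fixed block, the limma adjusted p of Ldha was 0.0515 or 0.0513, just short of the threshold. Those fits called 7.14% and 6.86% of all probe sets. Leaving out NTg triceps replicate 4 brought Ldha past the threshold, with 0.61 and an adjusted p of 0.0475 in limma, in a fit that called 5.54% of all probe sets.

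Subtracting the Ldha from the Ldhb signal on each array gives a balance of the 2 subunits whose level has no meaning, since they come from different probes, but whose difference between groups can be read. The balance was 0.81 ± 0.33 (SD, n = 8 mice) further towards Ldhb in gastrocnemius than in triceps of the same mouse, with a range of 0.40 to 1.23. All 8 mice showed this direction, and the exact two-sided sign-flip permutation test gave p = 0.00781, the smallest that 8 mice allow. Over the 5 mice without an array that stood apart it was 0.83 (exact permutation p = 0.0625, the smallest that 5 mice allow). Between genotypes the balance differed by 0.07 in gastrocnemius (exact permutation p = 0.629) and by 0.04 in triceps (exact permutation p = 0.914), where 4 against 4 arrays allow no p below 0.0286. With the mean of all probe sets of a gene the gastrocnemius value turned to -0.14. The triceps value was 0.26 without the 3 arrays and 0.16 after quantile normalization. These are 3 comparisons of 1 quantity.

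Several muscle genes varied closely with Ldhb across the arrays. The 5 genes whose pattern was most like that of Ldhb, by Pearson correlation over 16 arrays, were Mb, the oxygen store myoglobin (r = 0.98), Fhl1, a LIM protein of the sarcomere (0.96), Myl3, the slow myosin light chain (0.96), Tnnt1, slow troponin T (0.96), and Casq2, a calcium store protein of slow fibres and heart (0.96). With the 3 arrays left out these correlations lay between 0.91 and 0.98, and after removing the 4 group means they lay between 0.84 and 0.91. They describe these arrays, which share mice and scaling, and carry no test. By array, Mb read 13.18, 13.19, 13.16 and 13.17 in NTg gastrocnemius and 12.06, 11.85, 12.04 and 12.60 in NTg triceps. In SOD1G93A mice Mb read 12.97, 13.46, 13.37 and 13.34 in gastrocnemius and 11.93, 11.76, 12.53 and 12.80 in triceps. The 3 triceps arrays with the highest Ldhb, SOD1G93A replicates 3 and 4 and NTg replicate 4, were also the 3 with the highest Mb. Since Mb was chosen by its correlation with Ldhb over these same arrays, this match is no separate evidence.

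Markers of slow fibres and of some other cells were also higher in gastrocnemius. All 9 slow fibre genes were called higher in gastrocnemius, with a median difference of 4.73 (Myl3, 4.73, limma adjusted p 4.3e-07). In 5 of the 9 both triceps means were below the filter level of 6.75, so these genes passed the filter through gastrocnemius, and the sizes of their differences rest on triceps signals not shown to be above background. Mb was higher by 1.03 (adjusted p 0.000248). Both Schwann cell markers in the table were called, Mbp by 2.34 and Pmp22 by 1.26, with a list mean of 7.90 to 9.54 over the gastrocnemius arrays and 6.83 to 7.59 over the triceps arrays. Of 3 tendon markers Fmod was called, by 0.66 (limma adjusted p 0.00806), and without the 3 arrays it was not (adjusted p 0.0681). Of 12 fast fibre genes Myh2, the myosin of fast oxidative fibres, was called, by 1.71. Tested markers of adipocytes (2), immune cells (3) and smooth muscle (1) gave no call, 2 endothelial markers were below the filter, and no erythroid marker of the list was in the table. The part of these fibres and cells in the Ldhb difference was not tested.

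**Figure D2:**
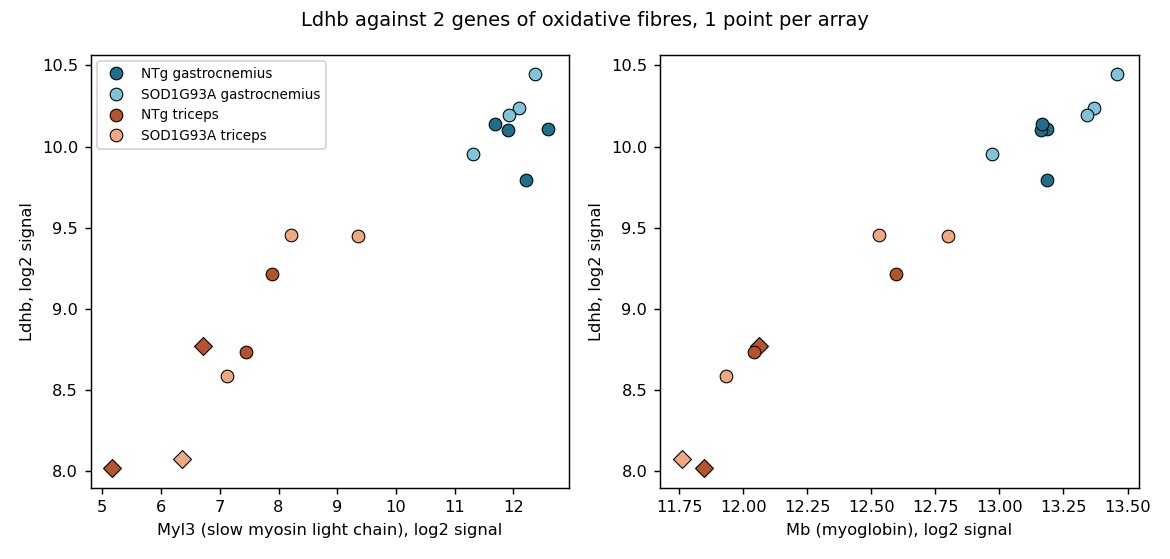
Log2 signal of the brightest Ldhb probe set against that of Myl3 (left) and Mb (right), 1 point per array, coloured by group, with diamonds for the 3 triceps arrays that stood apart. Ldhb is 9.80 or more on all gastrocnemius arrays, where Mb is 12.97 or more, and at 9.46 or less on all triceps arrays, where Mb is 12.80 or less. Both genes are among those chosen by their correlation with Ldhb over these arrays.

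The enzymes upstream of lactate dehydrogenase were not called between the muscles. All 13 member probe sets outside Ldhb had a positive difference, as did all 12 fast fibre genes (median 0.50) and all 5 skeletal muscle markers (median 0.61). The median over the 9 genes, Ldhb included, was 0.34 (0.13 to 1.33) against -0.00 over all tested probe sets, of which 49% were above 0. Unadjusted p-values were under 0.05 for 8 of the 17 member probe sets, against 22.3% of all. These 8 were the 4 probe sets of Ldhb, that of Ldha, those of Pgam2 and Eno3, and a single probe set of Aldoa. The differences of the 9 genes shrank to a median of 0.07 without the 3 arrays, with 7 of 9 above 0. After quantile normalization the median was -0.0098, with 4 of 9 above 0.

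Pygm, muscle glycogen phosphorylase, read 12.81, 12.77, 13.29 and 13.06 in NTg gastrocnemius and 12.22, 11.91, 13.22 and 13.07 in NTg triceps. In SOD1G93A mice Pygm read 13.03, 13.12, 13.24 and 13.29 in gastrocnemius and 12.86, 12.37, 13.21 and 12.99 in triceps. The muscles overlapped in both genotypes, and the difference of 0.34 (SE 0.18) had a limma adjusted p of 0.252. It was -0.01 without the 3 arrays.

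Pfkm, the muscle subunit of phosphofructokinase, ranged from 12.39 to 12.76 over the gastrocnemius arrays and from 11.95 to 12.81 over the triceps arrays. The highest Pfkm reading of all was in NTg triceps replicate 3. Its difference of 0.20 (SE 0.13, adjusted p 0.342 in limma) was -0.02 without the 3 arrays and -0.08 after quantile normalization. It was above 0 in 6 of 8 mice.

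Aldoa, the aldolase of muscle, had 4 probe sets that followed each other closely (r from 0.98 to 0.99 over 16 arrays). Their suffix _x_at marks probes that can also match other transcripts, so a share of other RNA in the signal cannot be told apart. The same suffix stands on 2 of the Ldhb probe sets and on the brightest of Tpi1. The brightest Aldoa probe set read 13.73, 13.75, 14.18 and 14.02 in NTg gastrocnemius and 12.82, 13.04, 14.17 and 13.97 in NTg triceps. In SOD1G93A mice it read 14.06, 14.19, 14.20 and 14.24 in gastrocnemius and 13.59, 12.68, 14.21 and 14.14 in triceps. The Aldoa difference was 0.47 (SE 0.22) with a limma adjusted p of 0.227, and 0.34 to 0.43 by the other probe sets. Within the 3 mice whose triceps array stood apart the difference was 0.71 to 1.51, and within the other 5 it was -0.02 to 0.47. Without the 3 arrays it was 0.02 and after quantile normalization -0.05.

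Tpi1, triosephosphate isomerase, varied least among the members over the 16 arrays. Its brightest probe set read 12.57, 12.52, 12.68 and 12.48 in NTg gastrocnemius and 12.24, 12.66, 12.56 and 12.39 in NTg triceps. In SOD1G93A mice Tpi1 read 12.62, 12.45, 12.48 and 12.68 in gastrocnemius and 12.59, 12.12, 12.44 and 12.47 in triceps. All 4 groups overlapped, and on NTg triceps replicate 2, which stood apart in bright genes, Tpi1 was the highest of its group. The muscle difference was 0.13 (SE 0.09, adjusted p 0.415 in limma), and 0.11 and 0.05 by the other Tpi1 probe sets. After quantile normalization these turned to -0.22, -0.21 and -0.14, none of them past the threshold.

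Pgam2, the muscle form of phosphoglycerate mutase, read 12.96, 12.93, 13.11 and 13.02 in NTg gastrocnemius and 12.27, 12.49, 13.08 and 12.96 in NTg triceps. In SOD1G93A mice Pgam2 read 13.19, 13.12, 13.12 and 13.21 in gastrocnemius and 12.87, 12.30, 13.11 and 12.99 in triceps. The SOD1G93A muscles did not overlap, but only narrowly, with a lowest gastrocnemius reading of 13.118 and a highest triceps reading of 13.114. Pgam2 was the only member outside Ldhb with such a gap, which 8.3% of all tested probe sets had in SOD1G93A mice. The difference of 0.32 (SE 0.13) over both genotypes had a limma adjusted p of 0.164, and was above 0 in 8 of 8 mice. It was 0.08 without the 3 arrays and -0.01 after quantile normalization.

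Eno3, the muscle enolase, ranged from 13.64 to 14.27 over the gastrocnemius arrays and from 12.72 to 13.99 over the triceps arrays. Its difference was 0.47 (SE 0.20, adjusted p 0.189 in limma), in 8 of 8 mice. With the mouse as a fixed block Eno3 passed the limma threshold (adjusted p 0.0459), as did 6.86% of all probe sets in that fit. Without the 3 arrays the Eno3 difference was 0.08 and after quantile normalization -0.06. Pkm, pyruvate kinase, ranged from 11.95 to 12.55 in gastrocnemius and from 11.63 to 12.40 in triceps, a difference of 0.24 (SE 0.12, adjusted p 0.241 in limma) that was above 0 in 8 of 8 mice and 0.05 without the 3 arrays. Over all tested probe sets, 5.93% were higher in gastrocnemius in all 8 mice and 4.4% lower, against 10 and 0 of the 17 here. The 10 include every probe set of Ldhb and some of Aldoa, whose brightest was higher in 7 of 8 mice. They are thus fewer genes than probe sets.

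**Figure D3:**
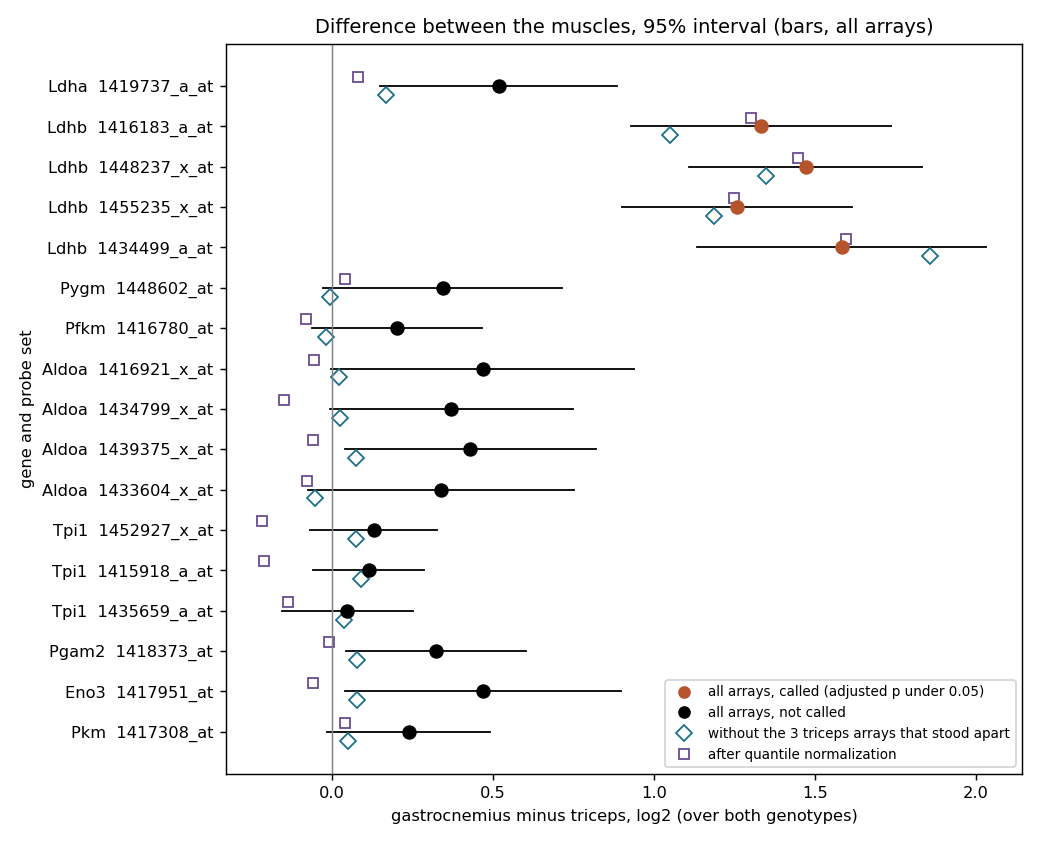
Difference between gastrocnemius and triceps over both genotypes, in log2 units, for the 17 probe sets; circles and bars give the fitted value and its 95% interval from all 16 arrays, reddish brown where the adjusted p was under 0.05. Open diamonds are refitted leaving out the 3 triceps arrays that stood apart and open squares after quantile normalization: the 4 Ldhb probe sets stay between 1.05 and 1.86, while each of the other 13 lies between -0.22 and 0.17 in those fits.

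The arrays that stood apart moved the members unevenly. For 10 of the 17 probe sets, those of Ldha, Pygm, Pfkm, Aldoa, Pgam2, Eno3 and Pkm, these 3 arrays gave the 3 lowest of all 16 readings, against 7.66% of all tested probe sets. The arrays were set apart by low readings of bright probe sets, and these 10 are bright too. The 7.66% is a share over dim probe sets as well, so it is not a like background. Of the 10, 4 are probe sets of Aldoa. The mean of the 3 was below that of the 5 other triceps arrays by 1.17 for Aldoa, 1.01 for Eno3 and 0.92 for Ldha. For Tpi1 it was below by 0.15. For Ldhb it was below by 0.80 by the brightest probe set, and by 0.39 and 0.24 by others. Only by the dimmest Ldhb probe set was it above, by 0.47. Creatine kinase (Ckm), a bright gene outside glycolysis, read 12.84, 13.02 and 12.76 on the 3 arrays and 13.84 or more on all others. The cause of the lower readings on these arrays, and its part in the muscle difference of the glycolytic genes, were not tested.

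**Figure D4:**
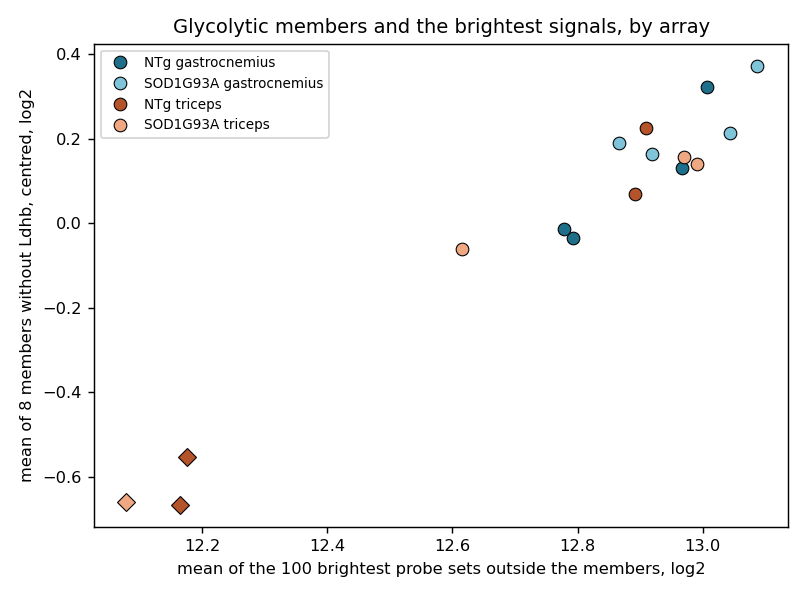
Mean of the 8 members without Ldhb, each centred on its mean over the 16 arrays, against the mean of the 100 brightest probe sets outside the members, both in log2 units, 1 point per array. The 3 diamonds, at 12.08 to 12.18 on the horizontal axis, have member means of -0.67 to -0.55, and the other 13 arrays, at 12.62 to 13.09, have member means of -0.06 to 0.37.

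Between the genotypes, no glycolytic or lactate dehydrogenase probe set was called in either muscle. In limma 0 of 17 passed in gastrocnemius, in triceps and over both muscles, as did 0% of all 4637 probe sets in each comparison. At an unadjusted p under 0.05 there were 0 of 17 in each of them, against 2.22%, 2.54% and 1.83% of all probe sets. The smallest adjusted p of a member was 0.999 in gastrocnemius, 0.994 in triceps and 0.997 over both muscles.

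The values leaned upward without passing the test. In gastrocnemius 8 of 9 genes were above 0, with a median of 0.15 (-0.00 to 0.25), against a median of -0.01 and 47.1% above 0 over all probe sets. In triceps 8 of 9 were above 0, with a median of 0.14 (-0.06 to 0.25), against a median of 0.02 and 54.4% over all. Over both muscles 8 of 9 were above 0 as well, with a median of 0.14, against 0.00 and 51.3%. That median was 0.05 without the 3 arrays and 0.02 after quantile normalization. Without the 3 arrays that stood apart, 2 of them in NTg and 1 in SOD1G93A triceps, the triceps median was -0.07 with 2 of 9 genes above 0. After quantile normalization the medians were 0.08 in gastrocnemius and 0.04 in triceps, with 6 of 9 genes above 0 in each. Leaving out single arrays moved the triceps median from 0.01, without NTg replicate 1, to 0.37, without SOD1G93A replicate 2. Within replicate numbers 1 and 2, which include all 3 arrays that stood apart, the medians were 0.25 in gastrocnemius and 0.24 in triceps. Within numbers 3 and 4 they were 0.09 and -0.01. The 5 skeletal muscle markers and 11 of 12 fast fibre genes were also above 0 in gastrocnemius, with medians of 0.20 and 0.19 and no call, and their part in the lean of the glycolytic genes was not tested.

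By gene, Pygm differed by 0.19 in gastrocnemius (95% interval -0.34 to 0.71) and 0.25 in triceps (-0.27 to 0.78). Ldha differed by 0.10 (-0.42 to 0.62) and 0.16 (-0.36 to 0.68), and Ldhb by 0.17 (-0.40 to 0.74) and 0.21 (-0.36 to 0.78). The other 3 Ldhb probe sets had differences of -0.17 to -0.05 in gastrocnemius and 0.06 to 0.30 in triceps, so the sign for Ldhb in gastrocnemius depends on the probe set. In triceps 8 of the 9 slow fibre genes were also above 0, with a median of 0.95 and no call, and their part in the Ldhb value was not tested. Aldoa differed by 0.25 (-0.41 to 0.92) in gastrocnemius and 0.16 (-0.51 to 0.82) in triceps. The narrowest intervals were those of another Tpi1 probe set than its brightest, 0.02 (-0.22 to 0.27) in gastrocnemius and -0.10 (-0.34 to 0.15) in triceps. Changes of the sizes inside these intervals remain compatible with the data of 4 arrays a group.

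Pgam2 in gastrocnemius was the only member whose genotypes did not overlap. Its 4 SOD1G93A readings of 13.12 to 13.21 lay above the 4 NTg readings of 12.93 to 13.11, a difference of 0.15 (SE 0.19, limma adjusted p 0.999) that shrank to 0.02 after quantile normalization. Such gaps were found in 1 of 17 probe sets here and in 2.7% of all tested probe sets. In triceps none of the 17 had such a gap, against 0.949% of all.

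The genotype difference was not shown to differ between the muscles. For the members the interaction, the gastrocnemius difference minus the triceps difference, had a median of -0.02 over the 9 genes, with 4 above 0, against -0.04 and 43.8% over all probe sets. It was 0.19 without the 3 arrays, with 7 of 9 above 0, and 0.13 with array weights, so its sign depends on those arrays. It was called for 0 of 17 members (smallest limma adjusted p 0.999) and 0% of all probe sets. At an unadjusted p under 0.05 it was 0 of 17 and 1.85%. The widest 95% interval among the brightest probe sets was that of Aldoa, -0.84 to 1.04.

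**Figure D5:**
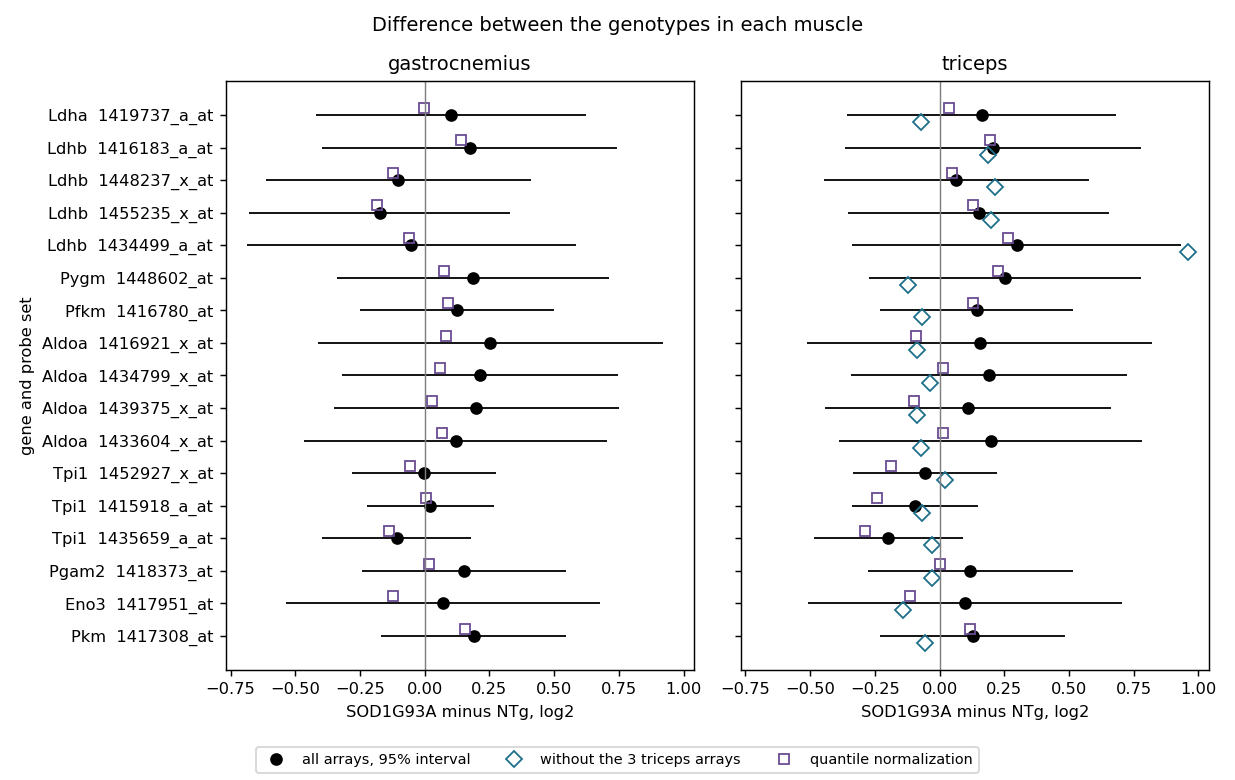
Difference between SOD1G93A and NTg mice in gastrocnemius (left) and triceps (right), in log2 units, for the 17 probe sets, with 95% intervals from all arrays; open squares are values after quantile normalization and open diamonds, in triceps, values without the 3 arrays that stood apart. Every interval from all arrays includes 0, and in triceps 7 of the 9 genes, by their brightest probe set, turn below 0 without those arrays.

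Among themselves, 7 of the 9 genes varied as a block. The 21 pairs of Ldha, Pygm, Pfkm, Aldoa, Pgam2, Eno3 and Pkm had Pearson correlations of 0.85 to 0.98 over the 16 arrays, with a median of 0.91. After removing the 4 group means the median was 0.91, and without the 3 arrays it was 0.72 (0.33 to 0.89). Ldhb was less tightly tied to the other 8 genes, with a median of 0.72 that became 0.26 without the 3 arrays, and Tpi1 had a median of 0.55 that became 0.28. These correlations are descriptions over arrays that share mice and array-wide scaling.

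The 5 genes closest to the mean profile of all 9 members were Tnnc2, fast troponin C (r = 0.98), Acta1, skeletal actin (0.98), Cox6c, a subunit of cytochrome oxidase (0.98), Mylpf, a fast myosin light chain (0.98), and Tnni2, fast troponin I (0.98). Without the 3 arrays the r values over the 13 others were 0.85 to 0.88. Of these genes none was called between the muscles, with differences of 0.41 to 0.66 and limma adjusted p-values from 0.153 to 0.200.

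The other genes of glycogen and glucose metabolism were examined from 5 lists. Of the 11 glycogen genes measured, 9 were tested, with 0 called between the muscles and a median difference of 0.08. The nearest was Phka1, the muscle regulatory subunit of phosphorylase kinase, with a difference of 0.33 (SE 0.10, limma adjusted p 0.0794). With the mouse as a random block Phka1 passed (adjusted p 0.0309 in limma), in a fit that called 7.14% of all probe sets, and with the mouse as a fixed block it did too (0.025). Without NTg triceps replicate 3 its difference was 0.42 (adjusted p 0.0066 in limma). Ugp2, which makes UDP-glucose for glycogen, differed by 0.39 (adjusted p 0.143 in limma).

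Of 11 other glycolytic genes 7 were tested and 0 called between the muscles, with a median of 0.14. Pgk1, the phosphoglycerate kinase, gave 0.44 (SE 0.22, limma adjusted p 0.241) and Hk2, the hexokinase of insulin-sensitive muscle, 0.24 (SE 0.11, adjusted p 0.203). Both glucose uptake genes in the table, Slc2a4, the insulin-regulated glucose transporter, and Txnip, a restraint on glucose uptake, differed by 0.06 and 0.05 with no call. Of 12 tested genes of lactate and pyruvate handling 0 were called. Mpc1, a subunit of the mitochondrial pyruvate carrier, differed by 0.40 (limma adjusted p 0.143) and passed without the 3 arrays that stood apart (0.30, adjusted p 0.0264). The lactate transporters Slc16a1 and Slc16a3 differed by -0.09 and 0.23 with no call. Of 3 tested regulators 0 were called.

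Between the genotypes none of the tested genes on these 5 lists was called in either muscle or over both. The lowest unadjusted p on them was that of Txnip, 0.37 over both muscles (SE 0.11, unadjusted p 0.00254, limma adjusted p 0.997), with 0.27 in gastrocnemius and 0.47 in triceps. Pdk4, which restrains pyruvate oxidation, differed by -0.63 (SE 0.48) in gastrocnemius and by 0.09 in triceps. All 7 tested genes of the other glycolytic list were above 0 in triceps, with a median of 0.23, and 5 of 7 in gastrocnemius, with a median of 0.06.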

How the data were processed

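RNA of gastrocnemius and triceps (4 ug per sample, extracted with Trizol and RNeasy) was labelled and hybridised to 1 Affymetrix array per muscle. The deposited values are log2 signals per probe set. MAS5 is named in the submitters' processing notes. The sources used here do not give its version, the scaling target or how the 7729 probe sets were selected, and base 2 was taken from the range of the values (-0.77 to 14.81). Array trimmed means differed by 1.06-fold at most, so the deposited log2 values were used without rescaling. Genes were named through the platform annotation: 7053 probe sets had 1 symbol, 330 had several and 346 had none. The brightest probe set over all arrays stood for a gene in medians and counts over genes.

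In limma 3.58.1 (R 4.3.3) the 4 group means were fitted with lmFit and eBayes with an intensity trend. Benjamini-Hochberg adjustment ran over the 4637 probe sets with a mean above the 40th percentile (log2 6.75), and calls are at an adjusted p under 0.05. The mouse was a random block for the genotype difference over both muscles only. The replicate number pairs the muscles, since the series takes both from the same 4 mice per genotype. The deviations of the muscles of 1 mouse correlated at 0.14 to 0.39, and 8 of 8 gastrocnemius arrays correlated best with the triceps array of their own number. Same-numbered SOD1G93A and NTg arrays of a muscle, which are different mice, correlated at 0.0006 to 0.37. What arrays of a number share beyond the mouse was not tested. The balance of Ldhb and Ldha was tested by exact two-sided permutation.

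All member probe sets are reported, with the other genes taken from 5 pathway lists and 10 lists of cell markers. The members, the lists and the 3 triceps arrays left out in an alternative were chosen with earlier results of these data known. The fit was run on simulated arrays with independent noise, which held neither a correlation within mice nor an array-wide shift. That run therefore does not bear on these features of the data. Promoter windows came from RefSeq (GRCm38.p6), 250 bases before each start. Replicates within a group are separate mice, so p-values measure the spread between 4 mice a group, in 5 comparisons per probe set. In the reported fits of the muscle difference and of the interaction, the pairing of the muscles by mouse was not used. Alternatives were quantile normalization, other filters, no trend, array weights, blocks by mouse or number, within-set values and leaving out arrays.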

Additional observations from a re-analysis of the deposited data

Results flagged for a closer look

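Of 68 sets of 4 arrays (17 probe sets in 4 groups), 2 had 1 array far from the other 3, where chance flags about 1 in 20. Ldhb by its brightest probe set read 9.80 in NTg gastrocnemius replicate 2, against 10.10 for the nearest array of that group, a gap that took up 0.894 of the group's range. Ldhb by its dimmest probe set read 8.66 in NTg gastrocnemius replicate 3, against 9.42 for the nearest, a gap of 0.915 of the range. Both arrays were still above every triceps array by the same probe set.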

How the results depend on the processing

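All 4 Ldhb probe sets stayed past the threshold between the muscles in every alternative, and no genotype comparison gave a call in any. Over 11110 single values and settings, 11097 kept their call, 11 came to pass the threshold, 1 no longer passed it (Fmod) and 1 turned sign and passed it. The sign itself changed in 724 of them. Among 2125 member values the call changed in 2, Eno3 and Ldha, and the sign in 160, none of them called in the reported fit. Quantile normalization turned the muscle median of the members to -0.0098 and Myh1 to -0.30 (limma adjusted p 0.0456). The count of 171 probe sets called between the muscles became 103 without the 3 arrays that stood apart. With the mouse as a random replicate block it became 331 and as a fixed replicate block 318. These replicate blocks changed the call of Eno3 among the members, Phka1, Thbs4 and Myl1 among the listed genes, and no other reported call.

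Leaving out single arrays moved that count from 99 (without SOD1G93A triceps replicate 2) to 272 (without NTg triceps replicate 3). It was 111 without SOD1G93A triceps replicate 1, 107 and 105 without NTg gastrocnemius replicates 1 and 2, 257 without NTg triceps replicate 4, and 100 and 113 without SOD1G93A gastrocnemius replicates 3 and 4. Member probe sets called between the muscles ranged from 4 to 5, and their median from 0.26 to 0.45. The genotype medians ranged from 0.09 to 0.20 in gastrocnemius, 0.01 to 0.37 in triceps, 0.09 to 0.22 over both muscles and -0.23 to 0.13 for the interaction. The balance of Ldhb and Ldha ranged from 0.75 to 0.87 between the muscles, 0.01 to 0.15 between genotypes in gastrocnemius (-0.14 with the mean of all probe sets of a gene) and -0.08 to 0.23 in triceps. The cause of these shifts was not tested. The balance over the 5 mice without an array that stood apart was 0.83 (exact permutation p = 0.0625, the smallest that 5 mice allow). The dimmest Ldhb probe set read 6.38 on 1 triceps array, below the filter level of 6.75.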
